A study of Homo sapiens with 4 samples.

Results

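The genes described here encode 10 proteins of neutrophil and eosinophil granules: AZU1, ELANE, PRTN3, CTSG, MPO, LYZ, RNASE2, RNASE3, SRGN and CFD. They were taken by symbol from the 50868 genes of the deposited table, each matched 1 row, and all 10 were among the 11004 genes averaging 1 FPKM or more (fragments per kilobase of gene per 1e+06 fragments) over the 4 libraries. RNA of KBM5, an established BCR-ABL-positive myeloid line from a chronic myeloid leukemia blast crisis, was sequenced with a stranded mRNA kit. The libraries were untreated cells (CTR) and cells treated with DSF, with IM or with the combination (IM-DSF). The codes IM and DSF, which the labels give without dose or time, are taken as imatinib, an inhibitor of the BCR-ABL kinase, and disulfiram, an inhibitor of aldehyde dehydrogenase. The title of the study concerns the targeting of BCR-ABL together with GPX4. All 4 groups are the same line, and each is 1 library, so no difference below has a replicate check and none carries a p-value.

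Azurophil granules, the primary granules of neutrophils, are filled at the promyelocyte stage, before the specific granules appear. They hold serine proteases that are activated by removal of a dipeptide, a heme peroxidase that makes hypochlorous acid, and lysozyme, and their cargo is packed on the proteoglycan serglycin. Eosinophil granules hold ribonucleases of the RNase A superfamily. In myeloid leukemia cells these genes serve as markers of granulocyte and monocyte commitment.

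The fragments behind the FPKM scale, in units of 1e+06, numbered 14.5 for CTR, 14.7 for DSF, 15.8 for IM and 12.4 for IM-DSF. Markers of blood cell types were looked up. All 5 neutrophil progenitor markers averaged 1 FPKM or more, but all 5 are among the genes described. They are therefore no separate check of the myeloid label. Of 7 mature neutrophil markers, 5 (LTF, MMP8, CEACAM8, LCN2 and FCGR3B) were listed at 0 in every library; CXCR2 had 0.900, 1.30, 1.47 and 2.13 FPKM in CTR, DSF, IM and the combination, and the sum with CAMP was 1.18, 2.03, 2.32 and 3.21. The part of these markers in the results was not tested. Of 6 eosinophil markers, EPX, CLC, IL5RA and SIGLEC8 were listed at 0 throughout. PRG2 was the 1 that averaged 1 FPKM or more, at 1.27, 2.97, 4.55 and 3.08 in CTR, DSF, IM and the combination. Summed erythroid markers stayed between 0 and 0.0968 FPKM. Of 6 T and NK cell markers, NKG7 alone was above 1 FPKM, at 10.8 to 13.3.

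All 10 genes were lowest in the untreated library. PRTN3 was the most abundant of them by mean FPKM, followed by SRGN, ELANE, LYZ, CTSG, AZU1, RNASE2, CFD, RNASE3 and MPO. Together they made up 2229.8 FPKM untreated, 2858 with DSF, 3640.3 with IM and 3670.4 with both, or 0.800%, 1.002%, 1.27% and 1.32% of all FPKM. Among the 11004 genes, 33.1% were lowest in CTR. In bulk RNA, a larger share of cells that express a gene and more RNA per cell cannot be told apart.

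**Figure D1:**
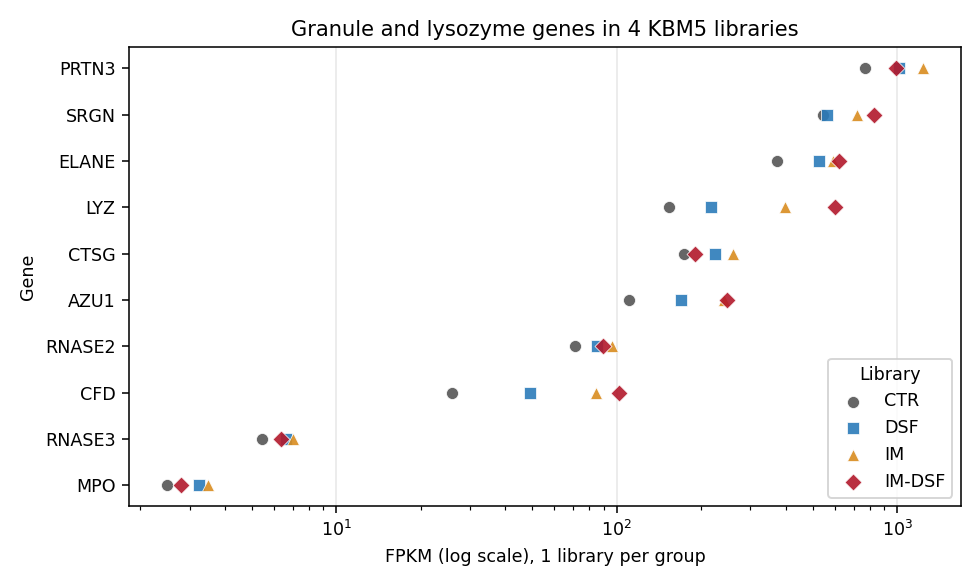
FPKM of each gene in the 4 KBM5 libraries on a log axis, 1 point per library and gene, ordered by mean. The CTR point lies leftmost in all 10 rows, and the range runs from 2.49 FPKM (MPO in CTR) to 1239 FPKM (PRTN3 in IM).

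The serine proteases and their relative AZU1 hold most of this transcript pool. PRTN3, proteinase 3, a neutrophil elastase-like protease and an autoantigen of vasculitis (ENSG00000196415; GRCh38.p14 chromosome 19, 840960 to 848175), stood at 769 FPKM untreated, 1016 with DSF, 1239 with IM and 989 with both. It ranked 34 among all genes in CTR and 26 in IM. ELANE, neutrophil elastase (ENSG00000197561; chromosome 19, 851014 to 856247), had 372, 526, 589.8 and 619 FPKM in the same order. AZU1, azurocidin, an antimicrobial relative of these proteases that has lost catalytic activity (ENSG00000172232; chromosome 19, 825097 to 832018), had 111, 169.5, 241 and 247 FPKM. CTSG, cathepsin G, a protease with chymotrypsin-like specificity (ENSG00000100448; chromosome 14, 24573522 to 24576260), had 174, 225, 260.0 and 191 FPKM. CTR was the lowest for all 4, but the highest library was IM for PRTN3 and CTSG and IM-DSF for ELANE and AZU1.

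Against CTR, AZU1 differed most among these 4. Its ratio was 1.53 for DSF (95% interval 1.46 to 1.61), 2.18 for IM (2.09 to 2.28) and 2.24 for IM-DSF (2.14 to 2.34); IM-DSF and IM differed by 1.03-fold, with an interval (0.989 to 1.06) that includes 1. These intervals are of 1 library against another, cover counting error only and rest on approximate fragment numbers. ELANE was 1.42-fold higher in DSF (1.37 to 1.47), 1.59-fold in IM (1.54 to 1.64) and 1.67-fold in IM-DSF (1.61 to 1.72). PRTN3 was 1.61-fold higher in IM (1.58 to 1.65), but 1.32-fold in DSF (1.29 to 1.35) and 1.29-fold in IM-DSF (1.26 to 1.32). CTSG had the same order as PRTN3, at 1.49-fold in IM (1.43 to 1.56), 1.29-fold in DSF (1.23 to 1.35) and 1.09-fold in IM-DSF (1.04 to 1.15). The proportions among the proteases differed between libraries: the PRTN3 to AZU1 ratio of FPKM was 6.95 untreated, 5.99 with DSF, 5.14 with IM and 3.999 with both. The PRTN3 to ELANE ratio was 2.07, 1.93, 2.1 and 1.60. Of the 50-base windows of AZU1 transcripts, 4.66% also occur in a transcript of another gene, and none of those of PRTN3, ELANE and CTSG do.

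AZU1, PRTN3, ELANE and CFD lie side by side on the plus strand of chromosome 19 within 38.5 kb, with gaps of 8.94, 2.84 and 3.40 kb between neighbouring genes. Within 50 kb, 4 other genes passed the filter of a mean of 1 FPKM, and none of them passed the size rule of 1 log2 unit on log2(FPKM + 1), which is a 2-fold difference on that scale, in any contrast. PTBP1, a splicing repressor, had 16.7 FPKM untreated, 20.7 with DSF, 14.8 with IM and 12.9 with both. PLPPR3, a lipid phosphatase-related membrane protein, had 28.3, 28.7, 35.8 and 31.9. MED16, a Mediator subunit, had 3.63, 3.64, 3.07 and 3.76, and R3HDM4 had 7.44, 8.44, 9.17 and 9.36. The median log2 difference in IM against CTR was 0.90 over the 4 granule genes and 0.05 over the 4 neighbours. In IM-DSF against CTR it was 0.94 and 0.10. Around CTSG no other gene within 50 kb passed the filter.

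**Figure D2:**
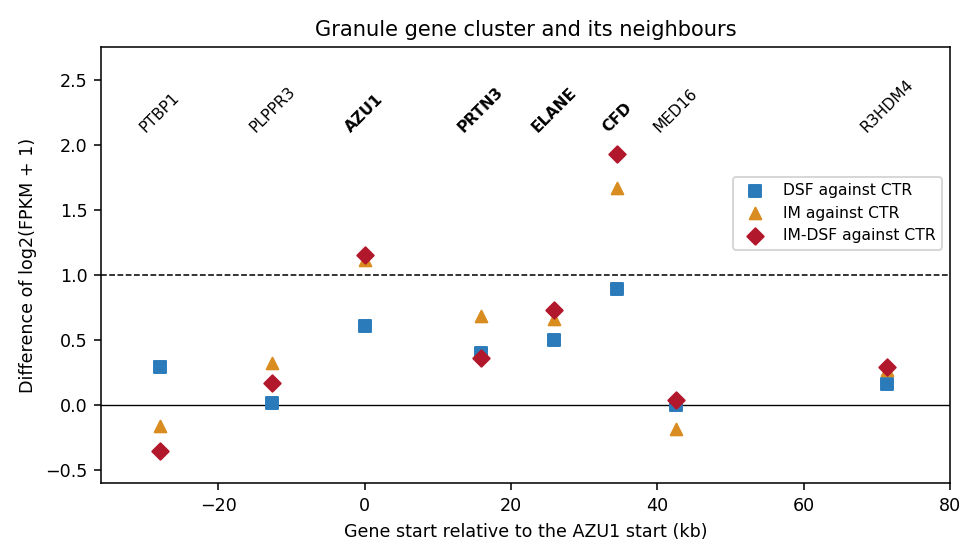
Difference of log2(FPKM + 1) from CTR for the genes of the AZU1 to CFD cluster (bold) and the 4 neighbours within 50 kb that passed the filter, against gene start relative to AZU1 in kb. Squares are DSF, triangles IM and diamonds IM-DSF; the dashed line marks 1 log2 unit, which AZU1 and CFD pass in IM and IM-DSF and no neighbour passes.

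All 10 genes, CFD of the same cluster included, were higher in every treated library, so this sets none apart. From this cluster the stretches upstream of AZU1 and PRTN3 are shown, chosen after their values were seen. They come from RefSeq promoter windows (build GRCh38.p14, 250 bases before to 50 after the gene start), cut before the start and outside annotated exons; the AZU1 stretch lies inside the interval that the deposited table gives for that gene. Capitals mark matches to any of 5 motifs searched on both strands. For C/EBP-type sites the letters searched were TTNNGNAA, where N is any base. For PU.1-type sites the letters searched were GAGGAA. For MYB-type sites the letters searched were AACTG. For RUNX-type sites the letters searched were TGTGGT, and for the TATA-type site the letters searched were TATAAA.
AZU1, chr19:827587-827835, plus strand: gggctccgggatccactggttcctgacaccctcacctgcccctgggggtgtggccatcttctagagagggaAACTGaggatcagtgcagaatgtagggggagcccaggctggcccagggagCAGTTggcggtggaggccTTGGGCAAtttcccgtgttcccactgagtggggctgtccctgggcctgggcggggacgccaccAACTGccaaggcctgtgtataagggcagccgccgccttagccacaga
PRTN3, chr19:840749-840959, plus strand: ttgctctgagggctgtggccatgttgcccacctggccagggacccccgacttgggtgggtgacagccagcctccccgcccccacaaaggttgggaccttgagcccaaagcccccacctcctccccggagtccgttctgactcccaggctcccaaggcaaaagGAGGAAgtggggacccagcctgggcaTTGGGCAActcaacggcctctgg
The C/EBP-type match reads TTGGGCAA in both, at -111 from the RefSeq start in AZU1 and at -62 in PRTN3. AZU1 also held 3 MYB-type matches, and PRTN3 held 1 PU.1-type match. The CTSG window held 1 C/EBP-type, 2 PU.1-type and 2 MYB-type matches, and the CFD window held none of the 5. In CTSG the C/EBP-type match (at +18) and 1 MYB-type match (at +1) are not upstream of the RefSeq start. None of these 4 windows held the RUNX-type or TATA-type letters. Of 35116 promoter windows of this length, 36.8% hold the C/EBP-type, 27.9% the PU.1-type, 39.7% the MYB-type, 13.1% the RUNX-type and 11.5% the TATA-type letters. A match describes the letters only. No RefSeq promoter window was found for ELANE, MPO, LYZ and SRGN, and the windows of CTSG and CFD are not printed.

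MPO, myeloperoxidase, the heme enzyme that defines the azurophil granule (ENSG00000005381; chromosome 17, 58269856 to 58280935), was the least abundant of the 10. It stood at 2.49 FPKM untreated, 3.23 with DSF, 3.49 with IM and 2.79 with both. PRTN3 exceeded it 308-fold in CTR and 355-fold in IM. Against CTR, the MPO ratio was 1.30 in DSF (1.02 to 1.64) and 1.40 in IM (1.11 to 1.76). Its IM-DSF to CTR ratio of 1.12 had an interval (0.860 to 1.44) that includes 1. No 2 libraries next to each other in its order differed beyond counting error.

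LYZ, lysozyme, which cleaves bacterial peptidoglycan and is made by granulocytes and monocytes (ENSG00000090382; chromosome 12, 69348341 to 69354234), was among the genes with the steepest steps. It stood at 154 FPKM untreated, 217 with DSF, 399 with IM and 599 with both, and each step in that order exceeded counting error. IM-DSF was 3.88-fold above CTR (3.74 to 4.02) and 1.5-fold above IM (1.46 to 1.54). In IM-DSF against CTR it ranked 15 from the top among 11004 differences. The summed FPKM of 7 monocyte markers had the same order of libraries, at 4.85 untreated, 7.30 with DSF, 11.8 with IM and 20.7 with both; 3 of the 7 averaged 1 FPKM or more and none was listed at 0 in all 4 libraries. MS4A6A held 9.31 FPKM of the IM-DSF sum and S100A9 6.41, but S100A9 was at 2.03, 2.48 and 2.08 FPKM in the other libraries and VCAN at 0.710 to 0.990, while CD14 stayed at 0.0353 to 0.230 FPKM and FCN1 at 0 to 0.0261. The part of these markers in the LYZ result was not tested. AC020656.1, on the opposite strand of LYZ, was listed at 0 untreated and with both agents, at 0.114 FPKM with DSF and at 0.106 with IM. Of the 50-base windows of LYZ transcripts, 8.23% also occur in a transcript of another gene.

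RNASE2, the eosinophil-derived neurotoxin (ENSG00000169385; chromosome 14, 20955452 to 20956436), stood at 71.3 FPKM untreated, 84.8 with DSF, 96.5 with IM and 89.3 with both. RNASE3, the eosinophil cationic protein (ENSG00000169397; chromosome 14, 20891399 to 20892348), is a paralog that lies 63.1 kb away on the same strand. It had 5.46, 6.61, 7.03 and 6.36 FPKM, so both were lowest in CTR and highest in IM. The lead of IM over the next library had an interval that includes 1 for RNASE2 (0.988 to 1.18) and RNASE3 (0.762 to 1.49). These genes have 1 annotated transcript each, and their FPKM gave whole fragment numbers within 0.05 for RNASE3: 57 untreated, 70 with DSF, 80 with IM and 57 with both. RNASE2 was 1.19-fold higher in DSF than in CTR (1.08 to 1.31), 1.35-fold in IM (1.23 to 1.48) and 1.25-fold in IM-DSF (1.13 to 1.38). The differences of RNASE3 were of like size, 1.21-fold, 1.29-fold and 1.17-fold, but were not detectable at this depth: the interval of the IM to CTR ratio ran from 0.905 to 1.84. RNASE2 exceeded RNASE3 by 13.1-fold untreated, 12.8-fold with DSF, 13.7-fold with IM and 14.04-fold with both. Their transcripts are identical at 88.9% of 720 aligned bases, and 3.26% of the 50-base windows of RNASE2 and 5.37% of those of RNASE3 occur in each other or in the clone-named gene AL355922.1. How reads of those windows were divided is not known, and the window shares do not bound the error. RNASE2 had about 781 fragments in CTR and 1152 in IM, against 57 and 80 of RNASE3. A misplaced RNASE2 read thus weighs more on RNASE3 than the reverse. The part of such reads in the RNASE3 values was not tested.

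The upstream stretches of this pair are shown because their levels differ more than 10-fold while their sequences are close; over 249 aligned bases of the RefSeq windows, 97.2% were identical, leaving out 34 bases inside the alignment that RNASE2 has and RNASE3 lacks. Capitals mark the motifs given above.
RNASE2, chr14:20955237-20955451, plus strand: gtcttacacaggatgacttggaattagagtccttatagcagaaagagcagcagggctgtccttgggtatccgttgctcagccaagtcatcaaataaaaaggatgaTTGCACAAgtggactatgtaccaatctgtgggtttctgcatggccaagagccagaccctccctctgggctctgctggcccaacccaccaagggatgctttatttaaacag
RNASE3, chr14:20891135-20891384, plus strand: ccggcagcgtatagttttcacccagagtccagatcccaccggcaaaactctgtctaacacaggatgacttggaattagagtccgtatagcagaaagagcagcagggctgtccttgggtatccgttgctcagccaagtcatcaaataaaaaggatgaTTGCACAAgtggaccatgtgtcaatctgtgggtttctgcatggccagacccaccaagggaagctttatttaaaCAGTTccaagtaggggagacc
The C/EBP-type match reads TTGCACAA in both, at -145 from the RefSeq start of RNASE2 and at -94 from that of RNASE3. Each window also held 2 MYB-type matches, of which those in annotated exons are not printed. The 2 windows do not start at the same point of the shared sequence.

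SRGN, serglycin, the proteoglycan core that binds granule proteases (ENSG00000122862; chromosome 10, 69088106 to 69104811), stood at 545 FPKM untreated, 561 with DSF, 719 with IM and 825 with both. The DSF to CTR ratio was 1.03 (1.002 to 1.06), with an interval that includes 1 under each of 3 other scalings, whereas IM was 1.32-fold (1.29 to 1.35) and IM-DSF 1.51-fold (1.47 to 1.56) above CTR. A small RNA model, RF00017, overlaps SRGN on the same strand, so its reads could have been divided. CFD, complement factor D, the serine protease that starts the alternative complement pathway by cleaving factor B (ENSG00000197766; chromosome 19, 859643 to 863630), had 25.9, 48.9, 84.7 and 102 FPKM. Its rank among all genes was 1197 in CTR and 204 in IM-DSF. CFD was 1.89-fold higher in DSF than in CTR (1.69 to 2.12), 3.27-fold in IM (2.95 to 3.63) and 3.93-fold in IM-DSF (3.54 to 4.37), and each step between its 4 ordered libraries exceeded counting error.

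The contrast of IM with CTR and that of IM-DSF with DSF have no library in common and address the IM treatment in cells without and with DSF. In IM against CTR, AZU1 (1.12), LYZ (1.37) and CFD (1.67) passed the size rule on the higher side, 3 of 10 genes, where 1.54% of 11004 genes did; 0 passed on the lower side, where 0.891% did. All 10 were higher, with a median log2 difference of 0.62, while 53.1% of all genes were higher and their median was 0.02. Abundant genes lay lower: over the 1528 genes averaging 20 FPKM or more the median was -0.10, and 39.1% of them were higher. In IM-DSF against DSF, LYZ (1.46) and CFD (1.04) passed, 2 of 10 beside 1.33% of all genes on the higher side, and 0 passed on the lower side, beside 1.05%. There 6 of 10 were higher, where 51.7% of all genes were, and the median was 0.15 beside 0.01 over all genes. The 4 lower genes were CTSG at 0.849 times DSF (0.812 to 0.889), PRTN3 at 0.973 times (0.952 to 0.995, but 0.978 to 1.02 after rescaling to TPM), and MPO (0.863) and RNASE3 (0.962), whose intervals include 1.

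The contrast of DSF with CTR and that of IM-DSF with IM likewise have no library in common and address the DSF treatment. In DSF against CTR, 0 of 10 genes passed the size rule, where 0.545% of all genes passed on the higher side and 0.573% on the lower. All 10 were nonetheless higher, by 0.04 (SRGN) to 0.89 (CFD) log2 units, with a median of 0.38 beside 0.00 over all genes. In IM-DSF against IM, 0 of 10 passed, beside 0.700% of all genes on the higher side and 1.04% on the lower. The 10 genes divided 5 to 5, where 49.7% of all genes were higher. LYZ was 1.5-fold, CFD 1.20-fold (1.12 to 1.29), SRGN 1.15-fold (1.12 to 1.18) and ELANE 1.05-fold (1.02 to 1.08) above IM. CTSG was at 0.734 times IM (0.703 to 0.767) and PRTN3 at 0.798 times (0.781 to 0.815). AZU1, MPO, RNASE2 and RNASE3 had intervals that include 1. DSF and IM were each set against the same CTR library, so their shared direction is not independent.

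**Figure D3:**
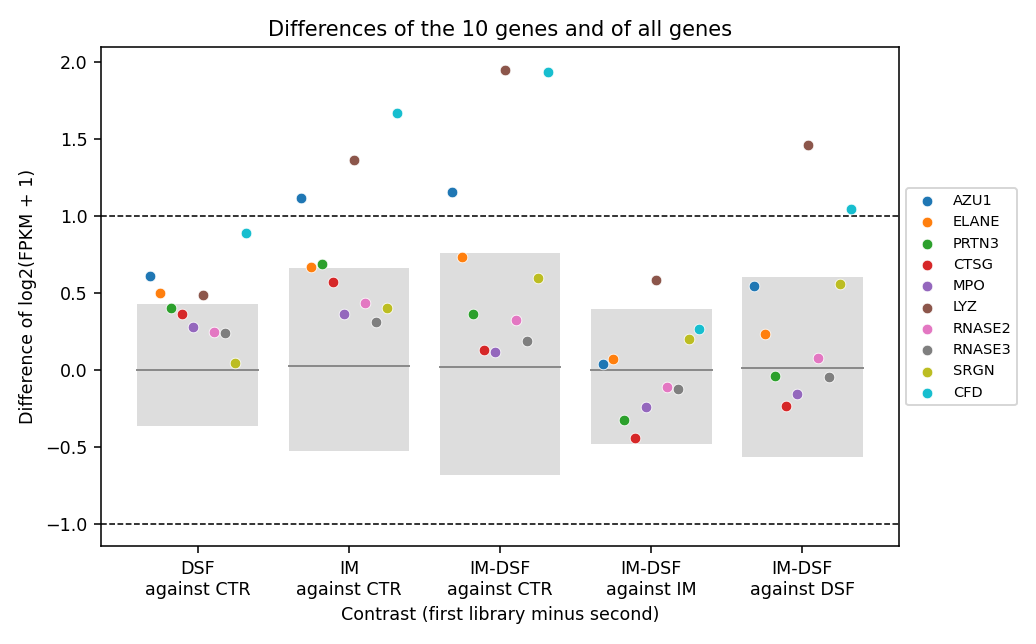
Difference of log2(FPKM + 1) of each of the 10 genes (points) in the 5 contrasts. Grey boxes span the central 90% of all 11004 genes (5th to 95th percentile) with the median as a line, and dashed lines mark 1 log2 unit. All points lie above 0 in the 3 contrasts with CTR, and they divide 5 to 5 in IM-DSF against IM.

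The third question is how the combined treatment compares with no treatment. AZU1 (1.15), CFD (1.93) and LYZ (1.95) passed the size rule, 3 of 10 where 2.54% of all genes passed on the higher side, and 0 passed on the lower side, where 1.74% did. All 10 were higher, where 52.1% of all genes were. The median over the 10 genes was 0.48, beside 0.02 over all genes and -0.19 over those averaging 20 FPKM or more. For 8 of the 10 the counting interval lay above 1, MPO and RNASE3 being the exceptions; it did so for 31.5% of 10962 genes and for 25.4% of those averaging 20 FPKM or more. LYZ took up 6.92% of the summed FPKM of the 10 genes in CTR and 16.3% in IM-DSF, while PRTN3 went from 34.5% to 26.9% and CTSG from 7.82% to 5.2%. CFD went from 1.16% to 2.77% and AZU1 from 4.96% to 6.74%. The LYZ to CTSG ratio of FPKM was 0.885 untreated, 0.964 with DSF, 1.53 with IM and 3.14 with both.

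**Figure D4:**
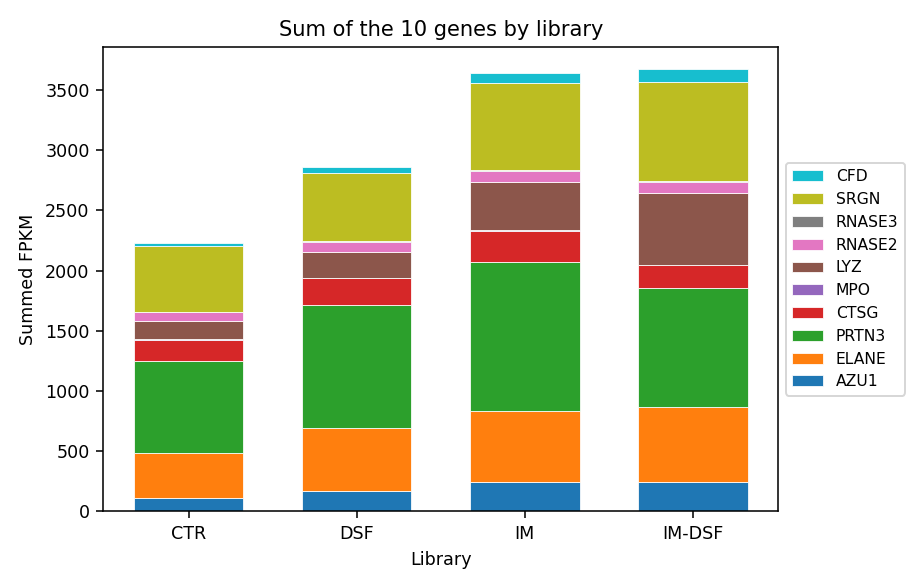
Summed FPKM of the 10 genes in each library, 1 bar per library, divided by gene; MPO and RNASE3 are too low to be seen. The sum is 2229.8 in CTR and 3670.4 in IM-DSF, the LYZ part grows from 6.92% to 16.3%, and the PRTN3 part shrinks from 34.5% to 26.9%.

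The combination was mostly below the sum of the log2 differences of the single treatments. The departure from additivity, what remains of the combined log2 difference after those of DSF and IM alone are taken off, was negative for 8 of 10 genes, with a median of -0.48 beside -0.01 over all 11004 genes, of which 48.4% were positive. It ran from -0.81 for CTSG, -0.73 for PRTN3 and -0.63 for CFD to 0.10 for LYZ and 0.16 for SRGN. As a ratio of FPKM ratios, the DSF ratio with IM was 0.570 times the DSF ratio without IM for CTSG (0.536 to 0.606), 0.604 times for PRTN3 (0.585 to 0.623) and 0.669 times for AZU1 (0.631 to 0.710). It was 1.07 times for LYZ (1.02 to 1.12) and 1.11 times for SRGN (1.07 to 1.16). The interval lay below 1 for 7 genes and above 1 for 2, and included 1 for RNASE3. Over 10942 genes it lay below 1 for 18.9% and above 1 for 16.6%, and over those averaging 20 FPKM or more for 33.6% and 22.5%. The DSF ratio was above 1 without IM and below 1 with IM for 5 of the 10, beside 22.5% of all 11004 genes, and the IM ratio was above 1 without DSF and below 1 with DSF for 4 of the 10, beside 15.3%. All 4 libraries enter each of these values, so 1 atypical library would move all of them.

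**Figure D5:**
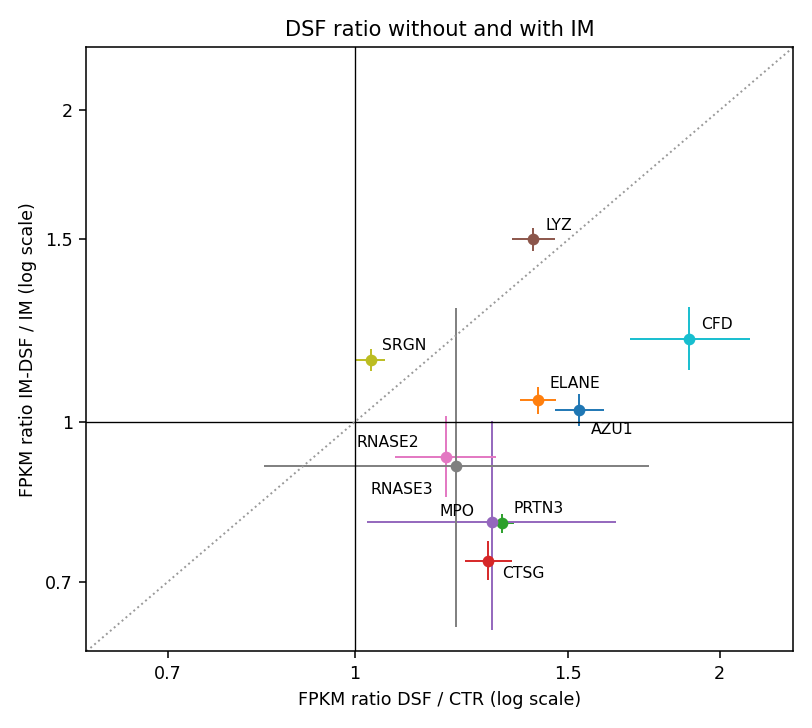
FPKM ratio of IM-DSF to IM against that of DSF to CTR, on log axes; bars are 95% counting intervals, solid lines mark a ratio of 1 and the dotted line equal ratios. LYZ and SRGN lie above the dotted line, and CTSG, PRTN3, MPO, RNASE2 and RNASE3 lie right of 1 on the x axis and below 1 on the y axis.

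Of 12 other azurophil granule genes 6 passed the filter. As deposited, 5 of these were higher and 1, CTSC, was lower in each treated library than in CTR. For CD63, counted among the 5, DSF had 33.6 FPKM beside 33.5 in CTR, so that direction depends on the scaling. Of all genes past the filter, 33.1% were lowest in CTR. Among those of the 12 under the filter, DEFA1, DEFA1B, DEFA3, DEFA4 and PGLYRP1, antimicrobial peptides and a peptidoglycan-binding protein, were listed at 0 in all 4 libraries. BPI, which binds bacterial lipopolysaccharide, did not exceed 0.0398 FPKM. PRSS57, a further serine protease of this granule, lies 129.6 kb from AZU1 and stood at 76.6 FPKM untreated, 96.7 with DSF, 98.8 with IM and 90.5 with both. It was highest in IM, as were PRTN3, CTSG and 21.4% of all genes past the filter. Its IM and DSF values lay close together, whereas PRTN3 was 1.22-fold and CTSG 1.16-fold higher in IM than in DSF. CD68, a lysosomal membrane glycoprotein, passed the size rule in IM-DSF against CTR (5.72 and 14.4 FPKM) but overlaps another gene. Against CTR the medians of the 6 genes were 0.30 with DSF, 0.24 with IM and 0.21 with both.

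Of 16 specific and gelatinase granule genes, LTF, LCN2, MMP8, MMP9, CEACAM8, CRISP3 and ARG1 were listed at 0 in all libraries. On this list 5 genes passed the filter, and 2 of these passed the size rule in IM-DSF against CTR. CHI3L1, a chitinase-like protein, stood at 12.7 FPKM untreated, 17.8 with DSF, 25.4 with IM and 38.6 with both, in the order of LYZ. CYBB, the oxidase subunit gp91phox, had 6.81, 11.2, 13.4 and 16.03 and overlaps another gene. CAMP, the cathelicidin, had 0.278, 0.730, 0.849 and 1.08 FPKM and stayed under the filter. SLPI, which inhibits ELANE and CTSG and is on this list and on that of inhibitors, was lower in every treated library, at 124, 114, 95.8 and 105 FPKM. The median of the 5 genes in IM against CTR was 0.51.

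Of the eosinophil, basophil and mast cell granule genes, PRG2, the eosinophil major basic protein, was the 1 of 9 that passed the filter. It stood at 1.27 FPKM untreated, 2.97 with DSF, 4.55 with IM and 3.08 with both, passed the size rule in IM against CTR and overlaps another gene. PRG2 was highest in IM, as were 21.4% of all genes past the filter. RNASE2 and RNASE3 were too, but their lead in IM over the next library was within counting error. EPX, the eosinophil peroxidase, CLC and the mast cell genes TPSAB1, CPA3 and HDC were listed at 0.

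Inhibitors of the proteases were partly higher. Of 9 on the list 4 passed the filter, and 3 of the 4 were higher in each treated library than in CTR. SERPINB1, the cytosolic inhibitor of elastase, PRTN3 and CTSG, stood at 16.3 FPKM untreated, 20.1 with DSF, 27.2 with IM and 35.9 with both, and passed the size rule in IM-DSF against CTR (1.09). SERPINB6, an inhibitor of CTSG, had 6.96, 8.06, 9.74 and 10.7, and SERPINB8, which overlaps another gene, had 1.35, 1.91, 2.31 and 2.90. Of 4 genes of protease maturation 3 passed the filter, and 1 of these was higher and 2 were lower in each treated library than in CTR. The median of -0.17 in IM against CTR is the value of CTSC. DPP7, the most abundant of the 3, was the higher one, at 20.9 FPKM untreated, 27.6 with DSF, 27.0 with IM and 31.2 with both. CTSC, which activates the granule proteases by removing the dipeptide, was highest in CTR, at 23.9, 20.2, 21.1 and 22.5 FPKM. CST7, cystatin F, an inhibitor of CTSC, had 2.22, 1.68, 0.476 and 0.432 FPKM and passed the size rule on the lower side in IM (-1.13) and IM-DSF (-1.17) against CTR, where 0.891% and 1.74% of all genes did.

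Of 15 transcription factors that act on granule genes, 12 passed the filter and 1 passed the size rule. This was CEBPD, at 16.5 FPKM untreated, 22.2 with DSF, 39.8 with IM and 27.6 with both (1.22 in IM against CTR). CEBPA, which drives granulocyte commitment, had 153, 161, 183 and 164 FPKM, and SPI1, the factor PU.1, had 58.1, 62.4, 70.05 and 52.7. Like PRTN3 and CTSG, all 3 were highest in IM, as were 21.4% of all genes past the filter. CEBPB and CEBPG were highest there too. As deposited GATA2 was as well, but at 2.97 FPKM beside 2.93 in CTR, so its order depends on the scaling. IRF8 and RUNX1 were highest in IM-DSF, CEBPE and MYB in DSF, and CBFB and GFI1 in CTR. GFI1, which represses monocyte genes, had 24.0, 22.9, 23.1 and 21.6 FPKM, and MYB had 31.0, 41.5, 32.6 and 32.9. CEBPE, needed for specific granules, had 6.65, 6.87, 5.90 and 5.38. GATA1 was listed at 0. The list median was 0.08 in IM and 0.03 in IM-DSF against CTR.

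By Euclidean distance of log2(FPKM + 1) profiles centred over the 4 libraries, the genes most like the mean of the 10 among 2926 candidates averaging 10 FPKM or more included MIR223HG, SUMF2, H1-10 and DOK3. Their distances were 0.03, 0.05, 0.07 and 0.09. The 10 genes themselves lay farther from their mean, from 0.13 for ELANE to 0.90 for CFD and 0.96 for LYZ. Likeness to the mean is therefore not likeness to each of the 10. MIR223HG, the host transcript of a myeloid microRNA, overlaps that microRNA and stood at 27.9 FPKM untreated, 36.3 with DSF, 46.7 with IM and 46.5 with both. DOK3, an adaptor of myeloid signalling, had 8.88, 11.6, 15.04 and 16.2. Each distance rests on 4 libraries.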

How the data were processed

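RNA-seq of 4 KBM5 libraries, 1 per group, was used. The authors deposited FPKM for 50868 genes, per the file headers; per the submitters' processing notes, HISAT2 2.0.4 and the build GRCh38.p14 were used. The counter, annotation release, gene lengths and use of strand were not given in the sources used here. Coordinates are the table's. GENCODE 29 matched 50111 identifiers (47538 with the same start and end) and gave biotypes, exon lengths and overlaps; all 10 genes had the same coordinates there. RefSeq promoter windows were found for 6 of the 10.

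Differences are of log2(FPKM + 1), which understates changes of low genes, over genes averaging 1 FPKM or more. A gene is called at 1 log2 unit, a rule checked on simulated libraries. Folds are FPKM ratios. At the step found for 1 fragment, 94.3% to 95.8% of 3461 to 3594 single-exon genes per library were whole within 0.05; among genes with several exons and 1 transcript, 96.9% to 99.5% were. For the others, exon-union lengths gave approximate fragment numbers. Intervals of folds are exact conditional binomial, those of ratios of ratios a normal approximation on the log scale, both at 95%; they cover counting error only, and PCR copies make them too narrow.

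The genes and lists were chosen with earlier results of these data known. Named are the 10 genes; list genes past the size rule, or otherwise up to 4 with the highest mean; filtered genes within 50 kb of AZU1, PRTN3, ELANE, CFD or CTSG; and the 5 nearest profiles, of which 1 is not reported here. List and marker genes at or near 0, MS4A6A, S100A9, CAMP, CD63, CEBPE, GFI1 and the 4 promoters printed were added after their values were seen. So were the transcription factors named only by their highest library. The alternatives tried were scaling by trimmed means, scaling by median of ratios, conversion to TPM (summing to 1e+06), a pseudocount of 0.1, a filter at a mean of 5 FPKM, and leaving the filter off. Python 3.11.15, numpy 2.4.6, pandas 2.3.3, scipy 1.17.1, matplotlib 3.10.9 and Biopython 1.88 were used.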

Additional observations from a re-analysis of the deposited data

Results flagged for a closer look

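Some genes had a DSF ratio above 1 in cells without IM and below 1 in cells with IM, 5 of 10, beside 22.5% of all 11004 genes. With 1 library per group the difference between the cell backgrounds was not tested across cultures. The ratio of DSF to CTR and that of IM-DSF to IM were 1.32 and 0.798 for PRTN3, 1.29 and 0.734 for CTSG, 1.30 and 0.799 for MPO, 1.19 and 0.925 for RNASE2, and 1.21 and 0.905 for RNASE3. Both intervals excluded 1 for PRTN3 and CTSG; the interval with IM included 1 for MPO and RNASE2, and both did for RNASE3.

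The IM ratio likewise lay above 1 without DSF and below 1 with DSF for 4 of 10 genes, beside 15.3% of all 11004, which is again a comparison of single libraries and was not tested across cultures. The ratio of IM to CTR and that of IM-DSF to DSF were 1.61 and 0.973 for PRTN3, 1.49 and 0.849 for CTSG, 1.40 and 0.863 for MPO, and 1.29 and 0.962 for RNASE3. Both intervals excluded 1 for CTSG. For PRTN3 both did as deposited, but the interval with DSF included 1 after rescaling to TPM (0.978 to 1.02). For MPO the interval with DSF included 1, and for RNASE3 both intervals did.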

How the results depend on the processing

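With 1 library per group nothing could be left out. No paired analysis was possible because each group has 1 library. Under the 6 alternatives, the numbers of genes past the size rule were 0, 3 and 3 for DSF, IM and the combination against CTR, 0 for the combination against IM and 2 against DSF in each setting, and all 354 recomputed single-gene values kept their direction and their side of the rule. Counting intervals were less stable: after rescaling to TPM they included 1 for PRTN3 in IM-DSF against DSF and for MPO and SRGN in DSF against CTR, and excluded 1 for AZU1 in IM-DSF against IM (1.02 to 1.10). MPO left the set with a mean of at least 5 FPKM. The background moved more: the share of all genes called higher in IM against CTR was 1.54% as reported, 3.93% with a pseudocount of 0.1 and 4.13% after rescaling to TPM. The median over the 10 genes in IM-DSF against IM, -0.04, became 0.04 with a mean of at least 5 FPKM and 0.01 after rescaling to TPM. The median departure from additivity ranged from -0.51 to -0.42. Depth limits RNASE3 and MPO: 57 to 80 fragments of RNASE3 leave a difference of this size undetectable.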

Other observations

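Genes of heme synthesis and of peroxidase folding, which MPO needs as a heme protein, included 1 large difference. ALAD, the enzyme that makes porphobilinogen, stood at 1.68 FPKM untreated, 7.14 with DSF, 7.98 with IM and 7.88 with both, and passed the size rule in all 3 contrasts with CTR (1.60, 1.74 and 1.73), which share that library. The other 9 of the 10 listed genes passed in none. ALAS1, the first enzyme of the pathway, had 35.1, 34.5, 37.5 and 42.9 FPKM, and CALR, a chaperone of the peroxidase precursor that overlaps a microRNA gene, had 289, 353, 310.1 and 271.

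Of 16 genes of granule and lysosome sorting, 14 passed the filter, with medians of 0.05, -0.08 and -0.04 in DSF, IM and IM-DSF against CTR. JAGN1, an endoplasmic reticulum protein needed by neutrophils, stood at 9.84 FPKM untreated, 17.2 with DSF, 16.1 with IM and 7.54 with both. It passed the size rule on the lower side in IM-DSF against IM and against DSF (-1.004 and -1.09), where 1.04% and 1.05% of all genes did. The value against IM lies at the edge of the rule, so that call depends on the scaling. LYST, a regulator of granule size, had 27.7, 33.2, 41.2 and 50.2 FPKM and overlaps a microRNA gene. IGF2R, a receptor that sorts lysosomal enzymes and overlaps another gene, had 34.6, 29.05, 29.6 and 32.1. Among genes that build the glycosaminoglycan chains of serglycin, 9 of 11 passed the filter with SRGN itself counted, and none passed the size rule; CHST11, a chondroitin sulfotransferase that overlaps other genes, had 15.2, 11.2, 9.14 and 7.71 FPKM.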
